A study of Mus musculus with 16 samples.

Results

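The genes described here are 10 epithelial alarmins and members of the IL-1 cytokine family: S100a8, S100a9, Lcn2, Slpi, Il1a, Il1b, Il1rn, Il18, Il33 and Tslp. They were taken by name from the table of read counts, whose Ensembl rows were matched to mouse gene symbols, and make up 10 of its 45706 gene identifiers. All 10 passed the filter on low counts and were among the 21526 genes tested. They were followed by RNA-seq in ear skin of 8 male C57Bl/6J mice, each sampled once at about 24 months and once at about 30 months, so that ageing could be followed within the same animals. The labels call the groups young and old. The mice at the first sampling were 23.8 to 24.4 months old and at the second 29.0 to 30.1 months, with 5.0 to 6.3 months between both samples of a mouse. The labels give no treatment or genetic alteration for either group. The first biopsy came from one ear and the second from the other, so that age, ear and time of sampling cannot be told apart, and a whole biopsy holds epidermis, dermis, cartilage, fat and muscle together.

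The 16 libraries held 22967222 to 36162431 reads on genes. Levels are given in CPM, the reads of a gene relative to those of its library with TMM scaling, errors are SD over the 8 mice of an age, and changes are log2 values at 30 months over 24 months from edgeR with a term for each mouse and its standard error (SE). Skin was recognisable by its keratinocyte markers, with Krt5 at 4485 CPM and Krt10 at 11380 CPM on average at 24 months. In a bulk biopsy fewer cells of a type and less RNA per cell cannot be told apart.

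Alarmins are molecules that epithelial cells hold ready or make quickly under damage and infection, and that call in or activate immune cells. S100a8 and S100a9 encode the chains of calprotectin, a metal-binding protein abundant in neutrophils and made by stressed keratinocytes. Lcn2 binds bacterial siderophores and Slpi inhibits serine proteases of neutrophils. The IL-1 family holds agonists (Il1a, Il1b, Il18, Il33) and the receptor antagonist Il1rn. Il1b and Il18 are cut to their active form by caspase-1 in inflammasomes, whereas Il1a and Il33 are stored in the nuclei of barrier cells. Tslp, a cytokine of epithelial cells outside the family, promotes type 2 immunity together with Il33.

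None of the 10 genes differed between the ages past an adjusted p of 0.05 in edgeR, where 0 of all 21526 genes, or 0.0%, did so and the lowest adjusted p of any gene was 0.0696. The adjusted p of the 10 genes lay between 0.327 and 0.823. At an unadjusted p under 0.05 edgeR listed 2593 genes (12%), of which 1047 (4.86%) were higher and 1546 (7.18%) lower at 30 months. Of the 10 genes, 4 were among them, with Lcn2, Slpi and Il18 higher and Il1rn lower at 30 months. DESeq2 called 228 genes (1.06%) at an adjusted p under 0.05, none of which was among the 10. The log2 change was positive for 6 genes and negative for 4, with a median of 0.47 against 0.01 over all genes tested. That median was 0.05 in the fit without the mouse term and 0.24 without mouse 50. The number at an unadjusted p under 0.05 was 1 without mouse 21 or without mouse 50, where only Il1rn was left, and 2 without mouse 14 or without mouse 29, or with age in months as a covariate. It was 5 without mouse 64, where S100a8 and S100a9 joined and Il18 was lost, and 5 without the mouse term, where Il1b joined. The values at both ages overlapped for every one of the 10 genes, while 42 of all genes (0.195%) showed no overlap.

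**Figure D1:**
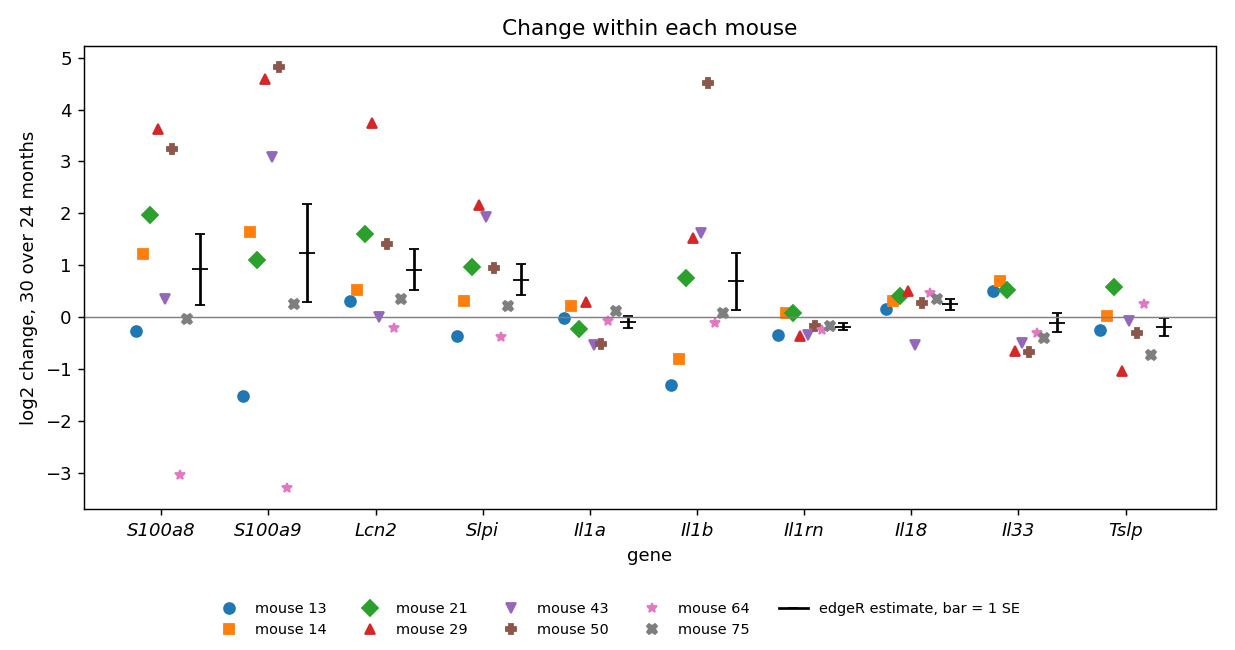
Log2 change from 24 to 30 months (vertical axis) of each gene (horizontal axis) in each of the 8 mice, as ratio of CPM values, with the edgeR estimate and 1 SE in black. S100a8, S100a9 and Il1b spread over several log2 units, from -3.30 to 4.82 for S100a9, whereas all 8 points of Il1rn lie between -0.36 and 0.08.

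S100a8 and S100a9, the calprotectin chains, had the widest spread of changes between mice among the 10 genes. At 24 months the lowest level of S100a8 was 0.819 CPM, the median 1.48 and the highest 23.5. At 30 months the lowest was 1.21 CPM, the median 2.89 and the highest 12.7. S100a9 went from a lowest level of 0.251, a median of 0.923 and a highest of 29.9 CPM at 24 months to 1.45, 2.58 and 11.96 CPM at 30 months. The highest value of both genes at 24 months was that of mouse 64, and the next below it, that of mouse 13, was 3.51 CPM for S100a8 and 4.49 for S100a9. At 30 months mouse 64 had 2.87 and 3.04 CPM, and mice 29, 50 and 21 then held the highest levels of both genes. Mouse 29 went from 1.03 to 12.7 CPM of S100a8 and from 0.496 to 11.96 CPM of S100a9, and mouse 50 from 0.819 to 7.75 and from 0.339 to 9.57 CPM.

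S100a8 was thus higher at 30 months in 5 of 8 mice and S100a9 in 6 of 8, where 19.6% of all genes were higher in 6 or more mice. The edgeR estimate was 0.92 (SE 0.68, adjusted p = 0.6002) for S100a8 and 1.23 (SE 0.94, adjusted p = 0.611) for S100a9. Means and medians went in opposite directions for S100a9, since its mean was 4.93 ± 10.2 CPM at 24 months and 4.49 ± 4.06 CPM at 30 months (SD, n = 8). The mean of S100a8 was 4.36 ± 7.80 and 4.87 ± 3.90 CPM (SD, n = 8). Without mouse 64 the estimates were 1.42 and 1.89, without mouse 29 they were 0.52 and 0.69, and without mouse 50 they were 0.55 and 0.67. In the fit without the mouse term they were 0.16 and -0.13, so that S100a9 changed sign.

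The genes lie next to each other on chromosome 3 of the mouse genome (GRCm38), S100a8 (ENSMUSG00000056054) at 90668978-90670035 on the plus strand and S100a9 (ENSMUSG00000056071) at 90692632-90695721 on the minus strand. Their upstream stretches are printed because both genes differed in the same direction in 7 of 8 mice, and those of Slpi and Il1b because their changes, after that of S100a8, ran closest to the change of S100a9. They were read 5′ to 3′ in the direction of the gene from the RefSeq promoter table of GRCm38.p6, which held 9 of the 10 genes, and exclude bases of annotated exons. Capitals mark matches on either strand to the TATA box with the letters TATAAA, to the AP-1 motif with the letters TGANTCA or to the C/EBP motif with the letters TTNNGCAA. No matches overlapped.
S100a8 (chr3:90668821-90668977, plus strand): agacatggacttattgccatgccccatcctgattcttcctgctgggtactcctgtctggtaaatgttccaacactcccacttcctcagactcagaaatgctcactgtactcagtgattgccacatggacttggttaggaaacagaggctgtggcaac
S100a9 (chr3:90695722-90695971, minus strand): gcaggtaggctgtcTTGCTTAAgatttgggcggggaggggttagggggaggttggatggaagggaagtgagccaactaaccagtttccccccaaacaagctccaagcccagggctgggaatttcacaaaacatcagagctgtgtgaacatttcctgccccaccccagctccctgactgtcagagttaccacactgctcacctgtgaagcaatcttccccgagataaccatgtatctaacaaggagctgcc
Slpi (chr2:164356508-164356757, minus strand): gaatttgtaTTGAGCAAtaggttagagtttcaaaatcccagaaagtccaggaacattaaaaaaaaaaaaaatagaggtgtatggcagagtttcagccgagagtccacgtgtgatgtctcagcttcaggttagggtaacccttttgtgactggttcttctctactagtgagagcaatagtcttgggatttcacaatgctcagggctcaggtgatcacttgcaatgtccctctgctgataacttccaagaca
Il1b (chr2:129371140-129371389, minus strand): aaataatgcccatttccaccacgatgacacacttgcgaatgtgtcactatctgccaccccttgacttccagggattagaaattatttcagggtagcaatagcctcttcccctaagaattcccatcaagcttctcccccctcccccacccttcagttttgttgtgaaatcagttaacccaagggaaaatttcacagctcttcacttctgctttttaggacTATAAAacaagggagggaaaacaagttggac

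The C/EBP letters stood 236 to 229 bases before the RefSeq start of S100a9 and 241 to 234 bases before that of Slpi, and the TATA letters 31 to 26 bases before that of Il1b. The stretch of Slpi lies within the GENCODE span of the gene, before the start that RefSeq gives. The 157 bases shown for S100a8 end 94 bases before its RefSeq start and held none of the 3 motifs. Among 32851 RefSeq promoters of 250 bases, the TATA letters occurred in 12.4%, the AP-1 letters in 6.75% and the C/EBP letters in 9.56%. A match describes letters only, and the absence of one says nothing about the factor.

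**Figure D2:**
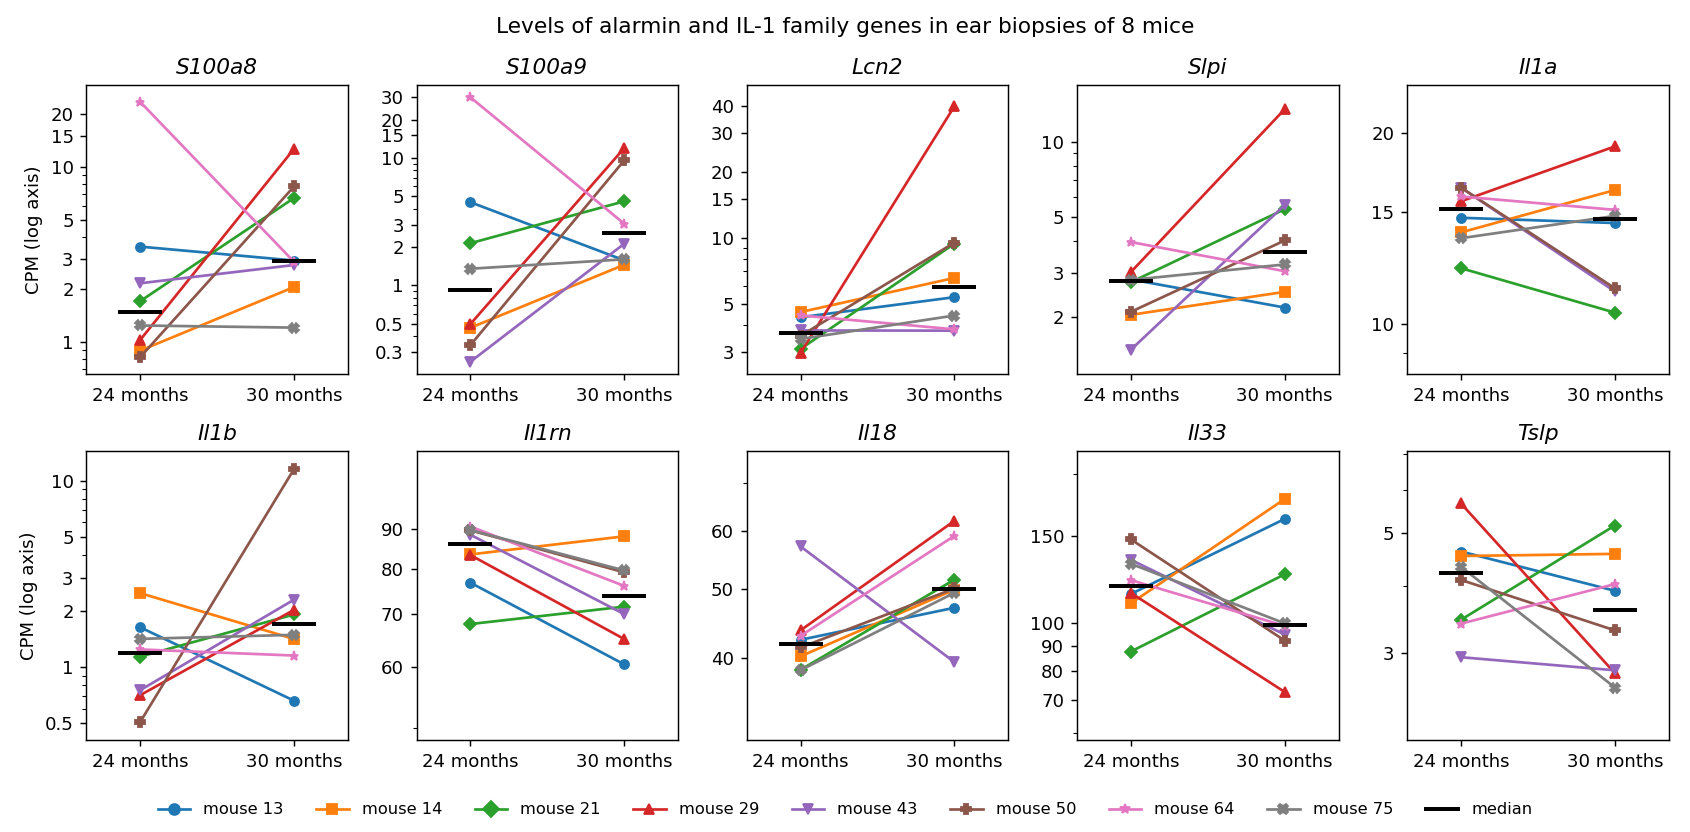
Level in CPM on a log axis (vertical) at 24 and 30 months (horizontal) of each of the 10 genes, with 1 line for each of the 8 mice and a black bar at the median of an age. Mouse 64 stands at the top for S100a8 and S100a9 at 24 months, mouse 29 for Lcn2 and Slpi at 30 months and mouse 50 for Il1b at 30 months, while both medians of Il1a, at 15.1 and 14.6 CPM, lie close together.

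Lcn2 (ENSMUSG00000026822, chromosome 2, 32384633-32388252, minus strand), the siderophore-binding lipocalin 2, was even across mice at 24 months and uneven at 30 months. Its lowest level at 24 months was 2.98 CPM, the median 3.66 and the highest 4.57. At 30 months the lowest was 3.76, the median 5.94 and the highest 39.8 CPM. The highest value belonged to mouse 29, a 13.4-fold increase over its own first biopsy, followed by mice 50 and 21 with 9.48 and 9.38 CPM. Mice 43 and 64 had 0.998 and 0.864 times their first level. Lcn2 was higher at 30 months in 6 of 8 mice, with an estimate of 0.91 (SE 0.39, adjusted p = 0.393 in edgeR and 0.200 in DESeq2). The mean was 3.77 ± 0.608 CPM at 24 months and 10.3 ± 12.1 CPM at 30 months (SD, n = 8). The estimate was 0.57 without mouse 29 and 1.45 without the mouse term.

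Slpi (ENSMUSG00000017002, chromosome 2, 164354070-164389095, minus strand), the secretory leukocyte protease inhibitor, was likewise higher at 30 months in 6 of 8 mice. Single mice differed from Lcn2, as mouse 43 had 3.78 times its first level of Slpi and 0.998 times that of Lcn2. The lowest, median and highest levels of Slpi were 1.48, 2.78 and 3.98 CPM at 24 months and 2.18, 3.63 and 13.5 CPM at 30 months. Mouse 29 was again highest at 30 months, with mice 43 and 21 next at 5.58 and 5.37 CPM, and mice 13 and 64 were the ones that were lower than at 24 months. The estimate was 0.72 (SE 0.30, adjusted p = 0.383 in edgeR and 0.262 in DESeq2), and the mean was 2.62 ± 0.757 CPM at 24 months and 4.93 ± 3.67 CPM at 30 months (SD, n = 8).

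Markers of cells that could supply these transcripts were compared in the same libraries. Of 15 neutrophil markers 8 were tested and 0 passed an adjusted or unadjusted p of 0.05, with a median log2 change of 0.39. Their summed level was 9.60 to 15.5 CPM at 24 months and 7.14 to 37.5 CPM at 30 months and was higher at 30 months in 5 of 8 mice. Mouse 50 held the 37.5 CPM, of which the receptor Csf3r made up 23.0. Ly6g and Ngp of this list, named after their values were seen, had 0 to 3 and 0 to 5 counts per library. In contrast, Csf3r had 1.82 to 23.0 CPM and Cxcr2 2.67 to 7.43 CPM over the libraries. In the 24-month library of mouse 64, where S100a8 and S100a9 were highest, the summed neutrophil level of 15.5 CPM was the highest of that age. Cxcr2 was also at its highest of that age, with 7.18 CPM, while Csf3r at 4.45 CPM was exceeded in other mice. Ly6g and Ngp had 0 counts in this library. Ngp had 0 counts in every library of that age and Ly6g at most 1, so these counts do not set the library of mouse 64 apart. The 9 stressed keratinocyte markers together had 1019 CPM there, below the 1068 CPM of mouse 75. Among them, Krt6b at 77.0, Sprr1a at 71.9, Sprr1b at 9.67 and Stfa1 at 3.74 CPM were the highest of that age. Krt6a at 179.5 and Krt16 at 332.6 CPM were exceeded in other mice.

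In the 30-month library of mouse 29, where Lcn2 and Slpi were highest, the summed neutrophil level was 13.5 CPM. Ly6g had 1 count there and Ngp 0. Other genes of the list went in both directions in this mouse. Mpo, Elane and Retnlg had 34, 10 and 30 counts, each its highest of the 16 libraries, against 8, 1 and 1 at 24 months. Csf3r went from 5.70 to 4.55 CPM and Cxcr2 from 5.21 to 3.65 CPM. The 9 stressed keratinocyte markers together ranged from 653 to 1068 CPM at 24 months and from 688 to 1315 CPM at 30 months and were higher in 4 of 8 mice, with 1 of the 9 higher and 0 lower at an unadjusted p under 0.05. Their most abundant genes, Krt17 and Krt16, had changes of 0.12 and -0.06. Mouse 29 had 1008 CPM at 24 months and 1148 CPM at 30 months, with single markers going in both directions. Its Krt16 went from 348.7 to 267.7, Krt6a from 178.6 to 148.8 and Krt6b from 57.1 to 39.7 CPM. In contrast, Sprr1a went from 52.3 to 164.9 and Sprr1b from 8.01 to 36.1 CPM, the highest levels of both in any library. The sum of mouse 21, with 9.38 CPM of Lcn2 at 30 months, went from 991 to 1315 CPM. Other markers of mouse 29 also differed between its biopsies, with fat cell markers at 296 and 1072 CPM, endothelial markers at 144 and 337 CPM and pigment cell markers at 159 and 27.2 CPM. The part of these cell populations in the levels of the alarmins was not tested.

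**Figure D3:**
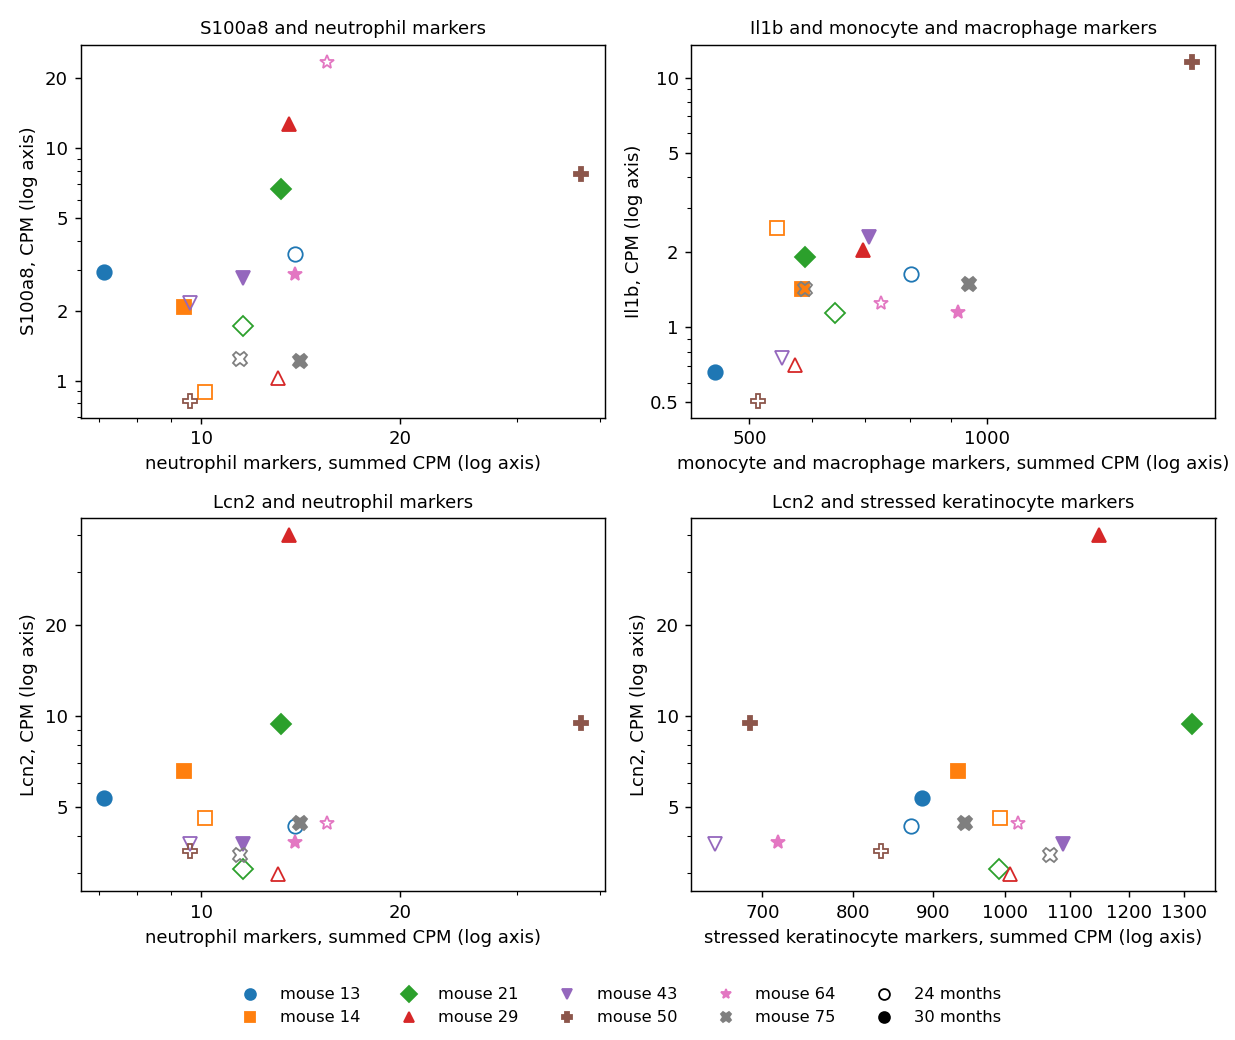
CPM on log axes of S100a8, Lcn2 and Il1b (vertical) against the summed CPM of neutrophil, monocyte and macrophage, or stressed keratinocyte markers (horizontal) in 16 libraries, open symbols at 24 and filled symbols at 30 months, 1 symbol shape for each mouse. Mouse 50 at 30 months lies far to the right for neutrophil markers at 37.5 CPM and for macrophage markers at 1818 CPM, and mouse 29 at 30 months stands highest for Lcn2 at 39.8 CPM with neutrophil markers at 13.5 CPM.

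Among the IL-1 agonists, Il1b (ENSMUSG00000027398, chromosome 2, 129364570-129371139, minus strand) had the lowest median of the 10 genes over all 16 libraries per exon length, while its median CPM at 24 months lay above that of S100a9. Its lowest level at 24 months was 0.509 CPM, the median 1.19 and the highest 2.50, and at 30 months these were 0.661, 1.71 and 11.6 CPM. The value of 11.6 CPM came from mouse 50, which had the lowest level of all mice at 24 months, and the other mice had at most 2.31 CPM at 30 months. Il1b was higher at 30 months in 5 of 8 mice, with an estimate of 0.69 (SE 0.56, adjusted p = 0.631), which was 0.23 without mouse 50 and 1.20 without the mouse term. The mean was 1.24 ± 0.637 CPM at 24 months and 2.82 ± 3.58 CPM at 30 months (SD, n = 8).

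The high Il1b level of mouse 50 stood beside high levels of many cell type markers. In this mouse 12 monocyte and macrophage markers went from 513 to 1818 CPM, where the other mice had 542 to 802 CPM at 24 months and 452 to 949 CPM at 30 months. Over all mice that sum was higher at 30 months in 6 of 8, with Ly6c2 as the 1 marker at an unadjusted p under 0.05 and a change of 0.12 for Csf1r, the most abundant one. In mouse 50 fibroblast markers went from 4070 to 14317 CPM, T cell markers from 69.1 to 249.5, B and plasma cell markers from 13.9 to 49.1 and mast cell markers from 321 to 778 CPM, and each of these sums was the highest of all mice at 30 months. Basal keratinocyte markers went from 14339.6 to 8874 CPM. The part of these markers in the level of Il1b was not tested. The library kit does not mark strand, and the antisense transcript Il1bos overlaps Il1b. Il1bos had 40 to 133 counts per library and its lowest count, 40, in the 30-month library of mouse 50, where Il1b had 368 counts.

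Il1a (ENSMUSG00000027399, chromosome 2, 129299610-129309972, minus strand), the agonist stored in keratinocytes, differed little in its median between the ages. Its lowest, median and highest levels were 12.2, 15.1 and 16.4 CPM at 24 months and 10.4, 14.6 and 19.0 CPM at 30 months. It was lower at 30 months in 5 of 8 mice, with an estimate of -0.10 (SE 0.11, adjusted p = 0.733) that was -0.03 without mouse 43 or mouse 50 and -0.15 without mouse 29. The transcript Gm14023, which overlaps it on the other strand, had 17 to 53 counts per library against 244 to 580 for Il1a.

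Il1rn (ENSMUSG00000026981, chromosome 2, 24336853-24351494, plus strand) encodes the antagonist that occupies the IL-1 receptor without signalling. Its lowest level at 24 months was 68.0 CPM, the median 86.0 and the highest 90.7, and at 30 months these were 60.4, 73.9 and 88.1 CPM. It was lower at 30 months in 6 of 8 mice, where 21.8% of all genes were lower in 6 or more mice and 8.33% in 7 or 8. Mice 14 and 21 were the exceptions, with 1.05 times their first level each. The mean was 83.8 ± 7.91 CPM at 24 months and 73.8 ± 8.86 CPM at 30 months (SD, n = 8). The estimate of -0.19 (SE 0.066) had an adjusted p of 0.327 in edgeR, the lowest of the 10 genes there. In DESeq2 the adjusted p was 0.280, above those of Lcn2 at 0.200 and Slpi at 0.262.

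Within a library the antagonist outnumbered both agonists. The median ratio of Il1rn to Il1b was 68.0 at 24 months, with a range of 33.4 to 176.4, and 45.3 at 30 months, with a range of 6.84 to 91.3. It was lower at 30 months in 6 of 8 mice, and the mean of the log2 ratio was 6.24 ± 0.79 and 5.27 ± 1.15 (SD, n = 8), a difference of -0.97 ± 1.86 that was -0.43 without mouse 50. The ratio of Il1rn to Il1a was narrower, with a median of 5.52 at 24 months and 5.41 at 30 months and a log2 difference of -0.09 ± 0.35 that was -0.01 without mouse 29. These are ratios of CPM and not of molecules per length. The ratio of S100a8 to S100a9 had a median of 1.42 at 24 months and 1.18 at 30 months, and its log2 difference of -0.45 ± 1.30 was smaller than its spread between mice, and was -0.13 without mouse 43 and -0.16 with a pseudocount of 0.5 CPM.

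Il18 (ENSMUSG00000039217, chromosome 9, 50554827-50581840, plus strand), an agonist that keratinocytes hold as an inactive precursor, was higher at 30 months in 7 of 8 mice, where 6.49% of all genes were higher in 7 or 8 mice. Its lowest, median and highest levels were 38.5, 41.9 and 57.2 CPM at 24 months and 39.5, 49.9 and 62.1 CPM at 30 months. Mouse 43 was the exception and went from 57.2, the highest value at 24 months, to 39.5 CPM, the lowest at 30 months. The other mice lay between 38.5 and 43.8 CPM at 24 months and between 47.0 and 62.1 CPM at 30 months. The estimate was 0.24 (SE 0.11, adjusted p = 0.401 in edgeR and 0.358 in DESeq2), and 0.36 with an adjusted p of 0.0945 in edgeR without mouse 43. Many markers also differed between both biopsies of mouse 43. Its skeletal muscle markers went from 9167 to 1038 CPM, fat cell markers from 514.6 to 166.8 and red blood cell markers from 253 to 52.4 CPM, while sebaceous gland markers went from 3248 to 8380 and hair follicle markers from 11.4 to 60.8 CPM. Their part in the level of Il18 was not tested. The genes Bco2 and Tex12 overlap Il18 on the other strand with 70 to 132 and 0 to 9 counts per library, against 1062 to 1822 for Il18.

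Il33 (ENSMUSG00000024810, chromosome 19, 29925114-29960718, plus strand), the nuclear alarmin of barrier and stromal cells, had the highest CPM of the 10 genes, and the mice split in their direction. Its lowest, median and highest levels were 87.6, 118.5 and 147.4 CPM at 24 months and 72.6, 99.2 and 177.7 CPM at 30 months. Mice 13, 14 and 21 went from 114.4, 109.5 and 87.6 CPM to 162.0, 177.7 and 125.3 CPM and had the 3 highest levels at 30 months. These mice were 24.4 months old at the first sampling, against 23.8 to 24.2 months for the others. The split therefore cannot be told apart from this age or from what went with it. The other 5 mice, at 115.0 to 147.4 CPM at 24 months, had 72.6 to 99.8 CPM at 30 months. The edgeR estimate was therefore small against its error, -0.11 (SE 0.17, adjusted p = 0.823), and ranged from -0.22 without mouse 14 to -0.02 without mouse 29 or mouse 50.

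Tslp (ENSMUSG00000024379, chromosome 18) had a lowest level of 2.95 CPM, a median of 4.21 and a highest of 5.67 at 24 months, and 2.59, 3.61 and 5.16 CPM at 30 months. It was lower at 30 months in 5 of 8 mice, with an estimate of -0.20 (SE 0.17, adjusted p = 0.657) that ranged from -0.30 without mouse 21 to -0.07 without mouse 29. Mouse 29 had the highest level at 24 months, 5.67 CPM, and 2.76 CPM at 30 months. The same mouse had the lowest Il33 at 30 months, 72.6 CPM, and the highest S100a8, S100a9, Lcn2, Slpi, Il1a and Il18.

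**Figure D4:**
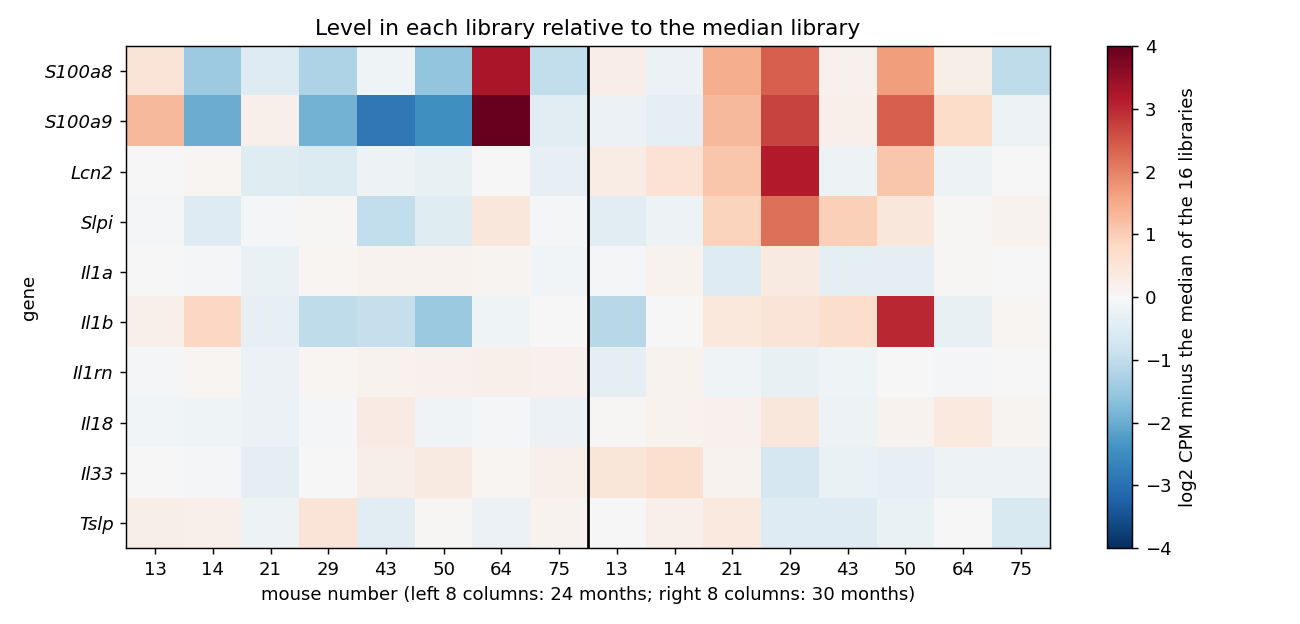
Level of each gene (rows) in each library (columns, mouse numbers, 24 months left and 30 months right) as log2 CPM minus the gene's median over 16 libraries. Dark red cells mark mouse 64 at 24 months for S100a8 and S100a9, mouse 29 at 30 months for Lcn2 and mouse 50 at 30 months for Il1b, and the rows of Il1a, Il1rn and Il18 stay near 0.

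To compare levels between genes, CPM were divided by exon length in kilobases (RPKM). In this unit the median over 16 libraries was 44.0 for Il18, 39.7 for Il33, 14.4 for Il1rn and 7.46 for Il1a. S100a9 followed with 3.56, S100a8 with 3.54, Tslp with 2.98, Slpi with 2.47, Lcn2 with 1.66 and Il1b with 0.744. Il33 exceeded Il1rn and Il1rn exceeded Il1a in 16 of 16 libraries. The ranges of mean ± SD overlapped for Il18 and Il33, and for each pair of neighbours from Il1a down to Il1b. Lcn2 exceeded Il1b in 15 of 16 libraries. Il1b, S100a8, S100a9, Lcn2, Slpi and Tslp had medians below that of Il1a at both ages.

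The spread between mice also differed by gene and age. The SD of log2 CPM of Lcn2 was 0.23 at 24 months and 1.12 at 30 months, that of Slpi 0.44 and 0.84, that of Il1b 0.74 and 1.20, and that of Il33 0.23 and 0.44. For S100a8 and S100a9 it was larger at 24 months, with 1.59 and 2.32, than at 30 months, with 1.12 and 1.20. The median SD over 21279 genes with no zero was 0.185 at 24 months and 0.270 at 30 months. Il1rn, with 0.14 and 0.17, and Il18, with 0.182 and 0.200, lay below that median at both ages. Il1a, with 0.149 and 0.301, lay below it at 24 months and above it at 30 months. These spreads are given as a description and were not tested against each other.

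Changes within a mouse were compared between the genes over the 8 mice, in all 45 pairs, with exact two-sided permutation tests. The changes of S100a8 and S100a9 ran together, with Pearson's r = 0.90 (permutation p = 0.0024, adjusted 0.108) and Spearman's rho = 0.88 (permutation p = 0.0072, adjusted 0.163). Without mice 64 and 29, the farthest from the median, r was 0.75. S100a8 and Lcn2 had r = 0.81 (permutation p = 0.0169, adjusted 0.253) and rho = 0.90 (permutation p = 0.0046, adjusted 0.163), with r = 0.85 without the same mice. S100a9 and Slpi had r = 0.84 (permutation p = 0.0101, adjusted 0.227) and rho = 0.81 (permutation p = 0.0218, adjusted 0.209), with r = 0.94 without mice 64 and 50, and went in the same direction in 8 of 8 mice. S100a8 and Slpi had r = 0.70 (permutation p = 0.0530, adjusted 0.387) and rho = 0.83 (permutation p = 0.0154, adjusted 0.209). Without mice 64 and 29 the r of S100a8 and Slpi was 0.34. S100a9 and Il1b had r = 0.75 (permutation p = 0.0276, adjusted 0.310) and rho = 0.79 (permutation p = 0.0279, adjusted 0.209), with r = 0.82 without mice 64 and 50. The changes of Il1b and Il33 were inverse, with r = -0.69 (permutation p = 0.0474, adjusted 0.387) and rho = -0.79 (permutation p = 0.0279, adjusted 0.209), with r = -0.61 without mice 50 and 13 and the same sign in 2 of 8 mice. None of the 45 pairs passed an adjusted p of 0.05.

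The genes whose levels were most like those of a member over the 16 libraries are given as a description, since both libraries of a mouse and all library-wide differences are shared by every gene. For S100a8 and S100a9 the closest gene was the other chain, with Pearson's r of log2 CPM of 0.90, and Chil4, a chitinase-like protein gene, came next for S100a8 with 0.85. Lcn2 ran closest to Slc8b1, Eif4e3 and the acute-phase gene Serpina3n, each with 0.94. Slpi ran closest to Klk6, which encodes a kallikrein-related protease, with 0.96. The closest genes to Il1b were Ms4a6b, Dpep2 and Efhd2, each with 0.89. Il18 ran closest to Lce1e, a late cornified envelope gene, with 0.93, followed by Mrap with 0.92 and Lce1k with 0.90. For Il1rn they were Asah2 with 0.85 and Pla2g2f and Skint6 with 0.84 each. For Il33 it was Slc4a3 with 0.88, for Il1a Sec62 with 0.88 and for Tslp Dusp19 with 0.89.

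The other genes of the pathway were counted in lists, and 0 genes of any list passed an adjusted p of 0.05 in edgeR. Of the 5 other IL-1 family ligands 1 was higher and 0 lower at an unadjusted p under 0.05, with a median log2 change of 0.20. It was Il36a, an agonist of the IL-36 receptor in epithelia, with 7.84 ± 2.51 CPM at 24 months and 12.7 ± 4.81 CPM at 30 months (SD, n = 8), an estimate of 0.64 (SE 0.22, adjusted p = 0.317) and higher levels in 7 of 8 mice. The antagonist of that receptor, Il36rn, had a change of -0.07 (adjusted p = 0.746).

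Among 14 receptors and binding proteins 3 were higher and 0 lower at an unadjusted p under 0.05, where 4.86% of all genes tested were higher and 7.18% lower. A positive log2 change was seen for 11, with a median of 0.23 against 0.01 over all genes tested. Their summed level was 485 to 539 CPM at 24 months and 513 to 649 CPM at 30 months, and was higher at 30 months in 8 of 8 mice. In mouse 21 the sums of both ages were nearly equal, at 510.6 and 512.8 CPM. Il1r2, described below, had the highest mean level in the list. Markers of other tissue parts differed as well. Of 8 endothelial markers 5 were higher and 0 lower at an unadjusted p under 0.05 with a median of 0.56, and of 6 tested cartilage markers 0 were higher and 5 lower with a median of -0.61. Their part in the receptor levels was not tested. Sigirr, which dampens signalling by IL-1 and Toll-like receptors, had 29.6 ± 5.16 CPM at 24 months and 43.8 ± 10.7 CPM at 30 months (SD, n = 8), an estimate of 0.55 (SE 0.14, adjusted p = 0.236). Il1r2, the decoy receptor of IL-1, had 129.8 ± 10.7 and 164.8 ± 33.1 CPM (SD, n = 8; 0.33, SE 0.09, adjusted p = 0.268). The last of them was Ager, the receptor for advanced glycation end products, which S100 proteins also bind, at 0.54 (SE 0.14, adjusted p = 0.258) and higher in 8 of 8 mice. Slc22a17, which encodes a receptor of lipocalin 2, had the lowest p among the genes with a negative change, -0.16 (adjusted p = 0.497).

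Of 20 genes of IL-1 and Toll receptor signalling 1 was higher, Irak2 with 0.14 (adjusted p = 0.413), and 0 were lower at an unadjusted p under 0.05, and the median was 0.05. Ikbkg led those with a negative change, with -0.11 (adjusted p = 0.422). Of 14 inflammasome and cytokine processing genes 1 was higher, the sensor Nlrp3 with 0.39 (adjusted p = 0.409), and 0 were lower, with a median of 0.01 and with Capn1 at -0.15 (adjusted p = 0.529). The 11 tested of 13 other S100 genes had 1 higher and 1 lower. S100a6 had 407 ± 69.97 CPM at 24 months and 489 ± 95.5 CPM at 30 months (SD, n = 8; 0.26, adjusted p = 0.399), and S100a3, expressed in hair follicles, had a change of -0.58 (adjusted p = 0.365).

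Among 15 tested of 17 antimicrobial and protease inhibitor genes 2 were higher and 0 lower at an unadjusted p under 0.05, with a median of 0.26. Ltf, which encodes the iron-binding protein lactoferrin, had 0.136 ± 0.122 CPM at 24 months and 0.482 ± 0.380 CPM at 30 months (SD, n = 8), an estimate of 1.74 (SE 0.48, adjusted p = 0.268) and higher levels in 8 of 8 mice. Wfdc2, a relative of Slpi, had a change of -0.44 (adjusted p = 0.541). All 11 tested of 15 targets of IL-1 and of type 2 responses had a positive log2 change. The median was 0.36 against 0.01 over all genes tested. Their levels were low, with means at 24 months from 0.126 CPM for Cxcl5 to 2.69 CPM for Ccl22. The positive estimates did not mean higher levels in most mice for each gene. Ccl20 and Areg were higher at 30 months in 3 of 8 mice, Il13 and Ccl17 in 4, and the other tested targets in 5 to 7. Of the 11, 1 was past an unadjusted p of 0.05. It was the chemokine Ccl22, with 2.69 ± 1.12 CPM at 24 months and 4.97 ± 1.64 CPM at 30 months (SD, n = 8; 0.91, SE 0.27, adjusted p = 0.282). The IL-1 targets Il6, Cxcl3, Csf2 and Csf3 were under the filter on low counts. The mean of Il6 was 0.248 CPM at 24 months and 0.176 CPM at 30 months, while the means of Cxcl3, Csf2 and Csf3 were higher at 30 months.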

How the data were processed

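RNA of ear biopsies from 8 male mice at 2 ages was sequenced as single-end reads (TruSeq RNA v2). The authors aligned them with TopHat to GRCm38 (mm10) and deposited raw counts per gene (Ensembl annotation); the submitters' notes name CASAVA 1.8.4, TopHat2 2.1.0 and HTSeq 0.6.1p1, and the strand setting is not given in the sources used here. The table's 5 summary lines (18.7% to 21.1% of reads) were left out. Columns of other samples numbered 0. Symbols, positions and exon lengths came from GENCODE M21, which lists 45143 of the 45706 identifiers.

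Counts were fitted in R 4.3.3 with edgeR 4.0.16 (TMM, filterByExpr, quasi-likelihood test) with terms for mouse and age, and p-values were adjusted over 21526 genes by Benjamini-Hochberg with a threshold of 0.05. The mouse number in the sample titles pairs the libraries, as both come from the same animal. Deviations from the age means correlated with a median of -0.02 within a mouse (-0.43 to 0.32) and -0.01 between mice. On simulated counts of this comparison for 21526 genes, 193 of 200 genes changed 2-fold were called, all in the right direction, with 9 unchanged genes. The changed genes were drawn above a set mean level, which S100a8, S100a9, Slpi, Il1b and Tslp did not reach. The simulated spread followed the trend over all genes, with no differences between mice. The share called therefore does not carry over to these genes or to others with a wide spread. Correlations used Python 3.11.15, numpy 2.4.6, scipy 1.17.1 and pandas 2.3.3. Levels in the most-alike comparison were log2 CPM with a prior count of 2.

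The 10 genes and all lists were chosen with earlier results of these data known. Besides the 10, the text names the gene with the lowest p in each direction of a pathway list, at most 2 markers of a cell type, those with the highest mean CPM, and up to 3 most similar genes per member. Other genes were named after their values were seen. Alternatives were DESeq2 1.42.0 (size factors, Wald test), no filter, no mouse term, age in months as a covariate, leaving out each mouse and, for ratios, a pseudocount of 0.5 CPM.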

Additional observations from a re-analysis of the deposited data

Results flagged for a closer look

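Values far from the other 7 mice by Dixon's criterion numbered 12 among 47 groups of 8 values. Independent values of a normal distribution would give about 1 in 20, or 2.35. Levels were examined as CPM without logarithm, and levels, changes and ratios share values. The 12 therefore cannot be read as an excess over chance. Mouse 50 had 4 of them, mice 29 and 43 had 3 each and mouse 64 had 2. No explanation was tested.

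At 24 months mouse 64 had 23.5 CPM of S100a8, against 0.819 to 3.51 in the other mice, and 29.9 CPM of S100a9, against 0.251 to 4.49. At 30 months mouse 29 had 39.8 CPM of Lcn2, against 3.76 to 9.48, and its log2 change of 3.74 lay above the others at -0.21 to 1.60. The same library had 13.5 CPM of Slpi, against 2.18 to 5.58. Mouse 50 had 11.6 CPM of Il1b at 30 months, against 0.661 to 2.31, and its log2 ratio of Il1rn to Il1b was 2.77, against 4.92 to 6.51. In mouse 50 the log2 change of the summed neutrophil markers was 1.97, against -0.96 to 0.30, and that of the fibroblast markers 1.81, against -0.82 to 0.02. Mouse 43 had 57.2 CPM of Il18 at 24 months, against 38.5 to 43.8, and a log2 change of -0.53, against 0.15 to 0.50. Its log2 ratio of S100a8 to S100a9 at 24 months was 3.11, against -0.36 to 1.27, and rests on 8 counts of S100a9.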

How the results depend on the processing

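Over the 10 genes and 13 alternatives, 129 of 130 log2 changes kept their direction and none passed an adjusted p of 0.05, the lowest being 0.0945 for Il18 without mouse 43. The exception was S100a9, at -0.13 without the mouse term. Over all genes, 228 were called by the DESeq2 Wald test and 3 without the mouse term, that is with no replicate block, and 0 in each other fit, including those without 1 mouse. With 1 mouse left out the count at an unadjusted p under 0.05 ranged from 1833 to 3772. The changes then ranged from 0.52 to 1.42 for S100a8, 0.67 to 1.89 for S100a9, 0.57 to 1.08 for Lcn2, 0.51 to 0.89 for Slpi, -0.15 to -0.03 for Il1a, 0.23 to 0.99 for Il1b, -0.22 to -0.15 for Il1rn, 0.21 to 0.36 for Il18, -0.22 to -0.02 for Il33 and -0.30 to -0.07 for Tslp. Low counts limit S100a9 (8 to 888 per library) and Il1b (18 to 368).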

Other observations

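Langerhans and other dendritic cells, which respond to alarmins and to Tslp, were looked at through 9 markers. Their summed level was 49.98 to 72.3 CPM at 24 months and 22.4 to 81.0 CPM at 30 months, and was lower at 30 months in all mice other than mouse 50. Of the 9 markers, 1 was higher and 2 were lower at an unadjusted p under 0.05 in edgeR. The lower ones were Cd207, the langerin gene of Langerhans cells, with 15.6 ± 2.79 CPM at 24 months and 10.8 ± 4.03 CPM at 30 months (SD, n = 8; log2 change -0.61, SE 0.18, adjusted p = 0.279 in edgeR), and Cd209a with 14.5 ± 4.48 and 7.73 ± 4.93 CPM (-1.09, SE 0.26, adjusted p = 0.222 in edgeR). The higher one, named after its values were seen, was Ccr7, the receptor by which dendritic cells migrate to lymph nodes, with 0.470 ± 0.183 and 2.29 ± 3.53 CPM (1.57, SE 0.46, adjusted p = 0.279 in edgeR) and higher levels in 8 of 8 mice.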
